A study of Mus musculus with 24 samples.

Results

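Mitochondrial ribosomal protein genes were followed in mouse liver under vutiglabridin, semaglutide and vehicle. The members are all genes of the deposited table whose symbol is Mrpl or Mrps followed by a number, 77 of 14293 genes. The rule used names and no measured value, though it was chosen with earlier results of these data known. RNA of 24 liver samples was sequenced, 8 samples in each of the 3 treatments, all from Mus musculus livers that the series describes as having NASH, in which fat storage is joined by inflammation and fibrosis. Vutiglabridin is a small molecule presented in the series title as a paraoxonase-2 agonist, semaglutide activates the GLP-1 receptor, and vehicle livers received no drug. No source used here gives the strain, sex, age, diet, dose or treatment time, or says whether the 8 samples of a group came from separate animals. The p-values below are therefore set by differences among these samples, some of which could be technical. Both drugs were compared with the same 8 vehicle samples.

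Mitochondria carry their own ribosome, which translates the few messages of the mitochondrial genome, all of them core subunits of the respiratory chain and ATP synthase. Its ribosomal RNAs come from mitochondrial DNA, while every protein is encoded in the nucleus, made in the cytosol and imported. Part of these proteins descend from bacterial ribosomal proteins and part are additions found in mitochondria. In liver, a tissue rich in mitochondria, this ribosome supports oxidation of fatty acids by keeping the respiratory chain supplied with its mitochondrially made subunits.

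By their place in the mammalian ribosome, 50 of the 77 genes encode proteins of the large subunit and 26 of the small subunit. Of the large subunit genes, 30 have a bacterial homologue and 20 are specific to mitochondria, and in the small subunit these numbers were 16 and 10. Mrps30 and Mrps18a carry small subunit names but were counted with the large subunit, where the mammalian structure places them. Mrps36 stands alone, since its protein is now assigned to the 2-oxoglutarate dehydrogenase complex of the citric acid cycle. The members lie on 17 chromosomes.

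The values are FPKM, fragments scaled by transcript length and library size. Steps between low FPKM values implied roughly 5990000 to 15300000 fragments in vutiglabridin libraries, 9320000 to 12400000 in semaglutide libraries and 12000000 to 19600000 in vehicle libraries, with vutiglabridin replicate 7 the shallowest. All 114344 values of the semaglutide columns carry a trailing space and none of the other groups do, so separate handling of those columns cannot be told apart from the drug. Albumin (Alb), which marks liver, averaged 26608 FPKM under vutiglabridin, 26865 under semaglutide and 22085 under vehicle. Markers of hepatocytes, the main cell of the liver, summed to 32147 to 46536 FPKM over 6 genes under vutiglabridin, 32166 to 43967 under semaglutide and 29145 to 36703 under vehicle, and 2 of 6 were higher under vutiglabridin and 3 of 6 under semaglutide than under vehicle. Recruited macrophage markers summed to 22.3 to 42.9 FPKM over 5 genes under vutiglabridin, 28.99 to 46.6 under semaglutide and 37.1 to 61.7 under vehicle, and 5 of 5 were lower under vutiglabridin and 4 of 5 under semaglutide. Stellate cell markers summed to 14.9 to 43.2 FPKM over 5 genes under vutiglabridin, 28.04 to 48.3 under semaglutide and 46.4 to 78.6 under vehicle, and the same 2 of 5, the collagen genes Col1a1 and Col3a1, were lower under each drug. Kupffer cell and macrophage markers summed to 52.7 to 127 FPKM over 6 genes under vutiglabridin, 48.4 to 81.2 under semaglutide and 59.5 to 200 under vehicle, with 3 and 2 lower. Under vutiglabridin 3 of these 6 had a change above 0. Vutiglabridin also had 2 of 3 tested T and NK cell markers, 1 of 2 of B cells and 1 of 4 of cholangiocytes, the cells of bile ducts, lower. Endothelial cell markers had 1 of 5 higher under vutiglabridin and 2 of 5 under semaglutide. The 1 pancreas marker tested was lower under semaglutide (-0.50). Over all tested genes 6.53% were higher and 8.78% lower under vutiglabridin than under vehicle, and 14.3% and 12.7% under semaglutide. Among all the markers only Cd3e, Cd8a and Cd79a of lymphocytes were at 0 in any library. The part of these cell type markers in the changes below was not tested. In whole liver, fewer cells of a type and less RNA per cell cannot be told apart.

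Of the 77 members, 68 had a promoter window in RefSeq (build GRCm38.p6, 250 bases before to 50 after the start). The stretches shown were picked from genes that carry results below. Those of other called genes, such as Mrps31, Mrpl15 and Mrps24, are not shown. The stretches therefore do not tell how often called members hold a motif. Mrpl12 had the highest level, Mrpl34 the next highest, Mrps27 is 1 of 3 genes that rose under vutiglabridin, and Mrpl16 had the deepest fall under semaglutide. Each is written 5′ to 3′ on its gene's strand and ends before the first annotated exon base next to the start. Capitals mark an NRF1 motif (GCGCA, any base, GCGC) or an ETS motif (CCGGAAG), read on either strand. NRF1 and the ETS factor GABP are known activators of nuclear genes for mitochondria.
Mrpl12, chr11:120484387-120484612, plus strand: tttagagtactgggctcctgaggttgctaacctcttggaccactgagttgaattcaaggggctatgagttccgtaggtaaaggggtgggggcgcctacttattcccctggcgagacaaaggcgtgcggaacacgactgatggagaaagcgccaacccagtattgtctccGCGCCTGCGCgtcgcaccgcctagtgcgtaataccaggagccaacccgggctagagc
Mrpl34, chr8:71464676-71464925, plus strand: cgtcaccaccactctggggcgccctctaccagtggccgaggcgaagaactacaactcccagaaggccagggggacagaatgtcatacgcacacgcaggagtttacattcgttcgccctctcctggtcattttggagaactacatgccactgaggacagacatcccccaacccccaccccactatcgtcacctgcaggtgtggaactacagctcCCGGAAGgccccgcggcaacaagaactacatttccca
Mrps27, chr13:99344706-99344785, plus strand, the whole gap between its start and that of Ptcd2: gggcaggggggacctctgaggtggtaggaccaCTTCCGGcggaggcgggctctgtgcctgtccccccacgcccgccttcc
Mrpl16, chr19:11770165-11770390, plus strand: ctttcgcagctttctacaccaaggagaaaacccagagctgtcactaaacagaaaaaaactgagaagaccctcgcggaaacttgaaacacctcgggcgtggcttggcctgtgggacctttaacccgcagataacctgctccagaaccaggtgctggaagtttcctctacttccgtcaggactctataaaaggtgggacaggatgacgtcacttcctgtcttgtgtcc
The Mrpl12 stretch holds an NRF1 match, the Mrpl34 and Mrps27 stretches hold an ETS match, and the Mrpl16 stretch holds neither string.

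Over the 300-base windows, 13 of 68 members (19.1%) held the NRF1 motif, against 10.6% of 9194 tested genes with a window. The ETS motif was in 23 members (33.8%), against 18.6% of all. One or both were in 32 members (47.1%), against 27.0% of all, and 4 members held both. A motif of the factor YY1 (AANATGGCG) was in 11 members (16.2%), against 5.55% of all, while the E-box CACGTG was in 5 members (7.35%), against 10.3% of all. Both strands were searched, and no match of the NRF1, ETS and YY1 motifs shared letters with a match of another in any window. These matches describe the letters of the windows and say nothing of binding.

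Levels spanned 87.8-fold between the highest and the lowest member, by mean FPKM over the 24 samples, a scale per length. The median member had 12.2 FPKM. Large subunit genes had a median of 13.5 FPKM and small subunit genes of 9.39 FPKM. Only Mrpl23 and Mrps36 had a mean under 1 FPKM, 31 genes lay between 1 and 10 FPKM, 42 between 10 and 40, and Mrpl12 and Mrpl34 were above 40.

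Mrpl12 encodes the stalk protein of the large subunit, which recruits translation factors and has also been reported to bind the mitochondrial RNA polymerase. It averaged 67.6 ± 11.3 FPKM under vutiglabridin, 65.6 ± 8.93 under semaglutide and 69.0 ± 7.70 under vehicle (SD, n = 8 each). Its partners at the stalk base were lower, with Mrpl10, which anchors the stalk, at 34.9 ± 2.00, 32.3 ± 2.2 and 34.1 ± 2.35 FPKM under vutiglabridin, semaglutide and vehicle, and Mrpl11 at 8.83 ± 0.91, 7.79 ± 1.04 and 7.93 ± 0.69 FPKM. None of these 3 stalk genes passed the test in any comparison of the values as deposited with all libraries. Mrpl10 was called lower for semaglutide over vehicle after scaling to TPM. It was called higher for vutiglabridin over semaglutide without semaglutide replicate 5.

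After Mrpl12 came Mrpl34, whose protein is among the smallest of the large subunit, at 47.1 ± 6.71 FPKM under vutiglabridin, 39.0 ± 6.81 under semaglutide and 43.3 ± 5 under vehicle. Mrpl14, whose protein lies at the face that meets the small subunit, had 41.2 ± 6.78, 40.5 ± 8.76 and 37.2 ± 5.16 FPKM in that order of groups. At the low end, Mrpl23, a protein at the rim of the exit tunnel in bacterial ribosomes, averaged 0.75 ± 0.22 FPKM under vutiglabridin, 0.69 ± 0.30 under semaglutide and 0.87 ± 0.39 under vehicle. Mrps36 had 1.00 ± 0.29, 0.84 ± 0.27 and 0.82 ± 0.23 FPKM in these groups.

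The order of levels was close to the same in each group, with Spearman's rho across the 77 genes of 0.996 for vutiglabridin and vehicle, 0.995 for semaglutide and vehicle, and 0.995 for the 2 drugs. These rhos describe the same genes with their own lengths in each group and carry no test. Within a group, the median coefficient of variation over the 8 samples was 11.2% under vutiglabridin, 11.3% under semaglutide and 10.1% under vehicle.

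**Figure D1:**
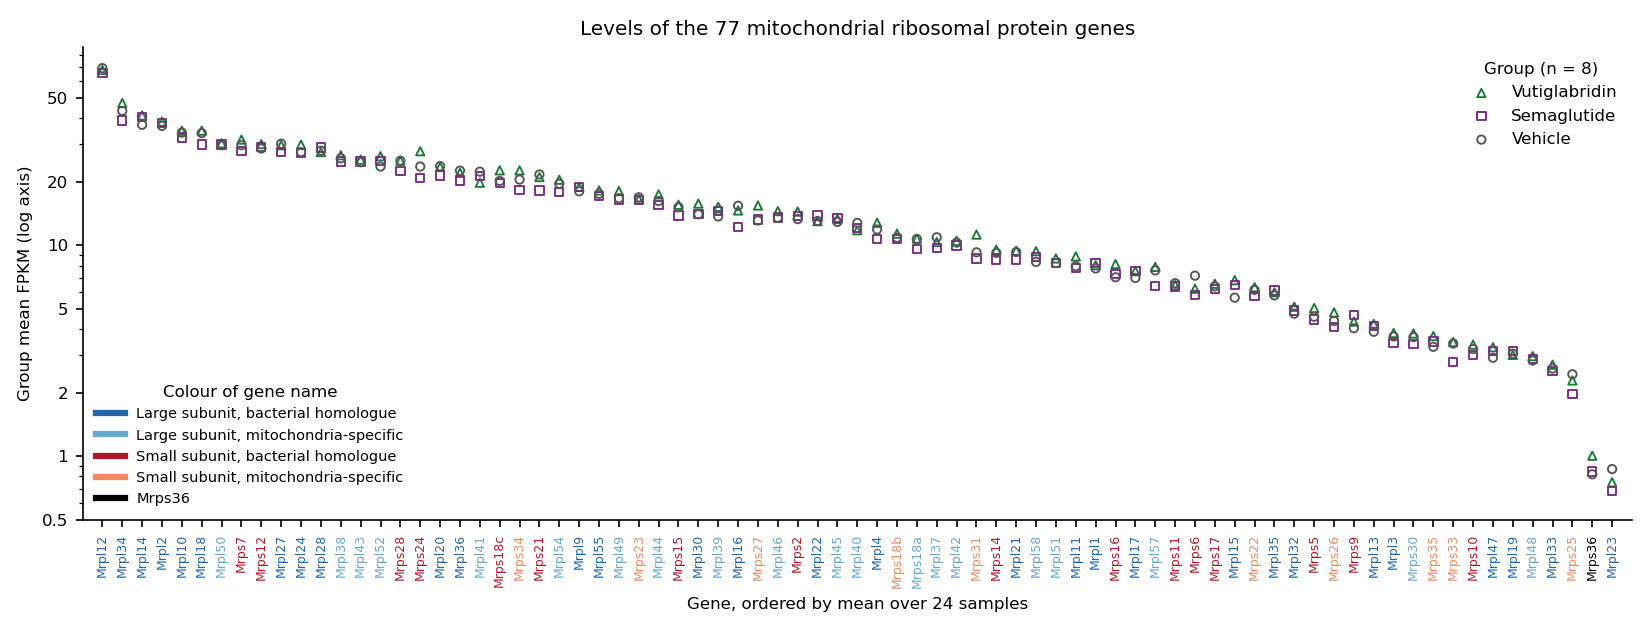
Mean FPKM of each of the 77 genes on a log axis, ordered by level, with 1 symbol per group (8 samples each) and gene names coloured by subunit and origin. The 3 symbols of a gene lie close together over an 87.8-fold range of levels. Mrps24, Mrps31, Mrpl16 and the low Mrpl23 are among the genes with wider gaps.

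The first comparison sets vutiglabridin against vehicle in the diseased liver. Of the 77 genes, 3 rose and 0 fell at a limma adjusted p under 0.05 over 11562 tested genes. The background was 15.3% of all tested genes (6.53% higher and 8.78% lower), and the members' share was 3.90%. At an unadjusted p under 0.05, 11 members differed. The median change was 0.05 on the log2(FPKM + 1) scale, against 0.01 over all tested genes, with 58 members above 0 and a range of -0.18 to 0.25. Of all 11562 tested genes, 6204 were above 0. Scaling each library to TPM turned the members' median to -0.09, with 0 higher and 8 lower, while that of all genes moved to -0.13 and calls over all genes to 233 higher and 2731 lower, against 755 and 1015 as deposited. Relative to all genes, the members' median was 0.04 as deposited, 0.04 after that scaling and 0.01 under quantile normalization.

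Mrps31, a small subunit protein specific to mitochondria (chr8:22411361-22429665), had the largest rise. Its FPKM ran from 10.1 to 13.4 with a median of 10.7 under vutiglabridin, against 7.33 to 10.2 with a median of 9.50 under vehicle. All 8 vutiglabridin samples were above the vehicle mean and 7 of 8 above the highest vehicle sample, so the groups overlapped by a narrow margin. The log2 change was 0.25 ± 0.07 (SE; limma adjusted p = 0.0155), and it passed with any 1 library left out but not after scaling to TPM (limma adjusted p = 0.246).

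Mrpl15, a large subunit protein with a bacterial homologue (chr1:4773206-4785739), ranged from 5.70 to 8.22 FPKM with a median of 6.72 under vutiglabridin, against 4.71 to 7.07 with a median of 5.46 under vehicle. All 8 vutiglabridin samples were above the vehicle mean, with 2 above the vehicle range. The change was 0.24 ± 0.07 (limma adjusted p = 0.0273). The call was lost without any of 6 libraries, vehicle replicates 1, 2, 5 and 7 and vutiglabridin replicates 1 and 7, where the adjusted p reached 0.0628 at most. It was also lost with GC and length trends removed (limma adjusted p = 0.0659), with only the 2 groups fitted (0.0519) and after scaling to TPM (0.232).

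Mrps27, a small subunit protein with pentatricopeptide repeats (chr13:99344786-99415562, shown above with its ETS match), ranged from 13.2 to 18.7 FPKM with a median of 14.6 under vutiglabridin, against 10.6 to 16.1 with a median of 13.0 under vehicle. Here too all 8 vutiglabridin samples were above the vehicle mean, but the ranges overlapped for most samples. Its change of 0.22 ± 0.08 was at the threshold (limma adjusted p = 0.0498) and passed in 6 of the 24 fits with 1 library left out. The Mrps27 call was also lost after scaling to TPM (limma adjusted p = 0.443), under quantile normalization (0.107) and with only the 2 groups fitted (0.0715). With a pseudocount of 0.1, no filter or a filter on mean FPKM, limma's adjusted p was 0.0506 to 0.0527. Without vehicle replicate 1, 5 or 7 or vutiglabridin replicate 1, only 1 member was called. The gene across the shared promoter, Ptcd2, changed by 0.15 in this comparison and did not pass (limma adjusted p = 0.112).

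The 95% interval of the change lay within 0.5 of 0 on the log2 scale for 77 of 77 members, against 85.7% of all tested genes, and within 0.25 of 0 for 53 members, against 46.4% of all. No member had groups that did not overlap, which 1.74% of all tested genes did.

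The comparison of semaglutide with vehicle gave 0 genes that rose and 3 that fell, where 27.0% of all tested genes were called (14.3% higher and 12.7% lower). The members' share was again 3.90%, and 12 had an unadjusted p under 0.05. The median change was -0.04 against -0.01 over all tested genes, 48 members were below 0, and the range was -0.32 to 0.18. Above 0 were 29 members and 5419 of all 11562 tested genes. With trends of GC content and exon length removed the median was -0.00, and 5 members were lower and 3 higher. All 11562 tested genes then had 1583 lower and 1706 higher. In the deposited values, changes under semaglutide ran with gene properties, with a Spearman rho of -0.30 with GC content over all tested genes and -0.29 over the members, and of 0.27 and 0.25 with exon length.

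Mrpl16, a large subunit protein whose bacterial homologue lies near the site where peptide bonds form (chr19:11770391-11774960), had the deepest fall. Its FPKM ran from 10 to 14.3 with a median of 11.9 under semaglutide, against 12.8 to 16.7 with a median of 15.6 under vehicle. All 8 semaglutide samples were below the vehicle mean and 5 below every vehicle sample. The change was -0.32 ± 0.07 (limma adjusted p = 0.000885) and passed in every one of the 24 fits with a library left out and the 11 other alternatives.

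Mrps25, a small subunit protein specific to mitochondria (chr6:92169525-92184033), ranged from 1.63 to 2.51 FPKM with a median of 1.86 under semaglutide, against 1.89 to 2.99 with a median of 2.44 under vehicle. Of the 8 semaglutide samples, 7 were below the vehicle mean and 4 below the vehicle range. The change was -0.21 ± 0.07 (limma adjusted p = 0.0187), a value that the added 1 FPKM makes smaller at such levels, and it too held in all 24 and 11 fits. Its exons overlap those of Nr2c2 on the opposite strand, and no source used here says whether counting used strand.

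Mrpl18, a protein of the central protuberance of the large subunit (chr17:12911349-12916345), ranged from 25.2 to 33.4 FPKM with a median of 29.7 under semaglutide, against 30.6 to 39.2 with a median of 33.4 under vehicle. All 8 semaglutide samples were below the vehicle mean and 5 below the vehicle range. The change was -0.17 ± 0.06 (limma adjusted p = 0.0293). It did not pass without vehicle replicate 2 or 4 or semaglutide replicate 2 or 6 (adjusted p up to 0.0679), nor with the GC and length trends removed (adjusted p = 0.374). Its exons overlap Tcp1 on the opposite strand.

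Intervals within 0.5 of 0 held for 76 of 77 members, against 83% of all tested genes, and within 0.25 for 49, against 37.1%. No member had groups without overlap, where 5.83% of all tested genes did. Without semaglutide replicate 5, the highest of its group for 41 members, 10 members fell, where 1577 of 11562 tested genes did. Without vehicle replicate 5 or 6 or vutiglabridin replicate 5, 5 fell, without vehicle replicate 8, 6 fell and 1 rose, and without vutiglabridin replicate 7, 5 fell and 1 rose. Over all tested genes 1433 to 1625 fell and 1604 to 1737 rose in these fits. The vutiglabridin samples enter through the shared estimate of spread. After scaling to TPM the members' median was -0.09 and 15 fell, where 2116 of all tested genes did.

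**Figure D2:**
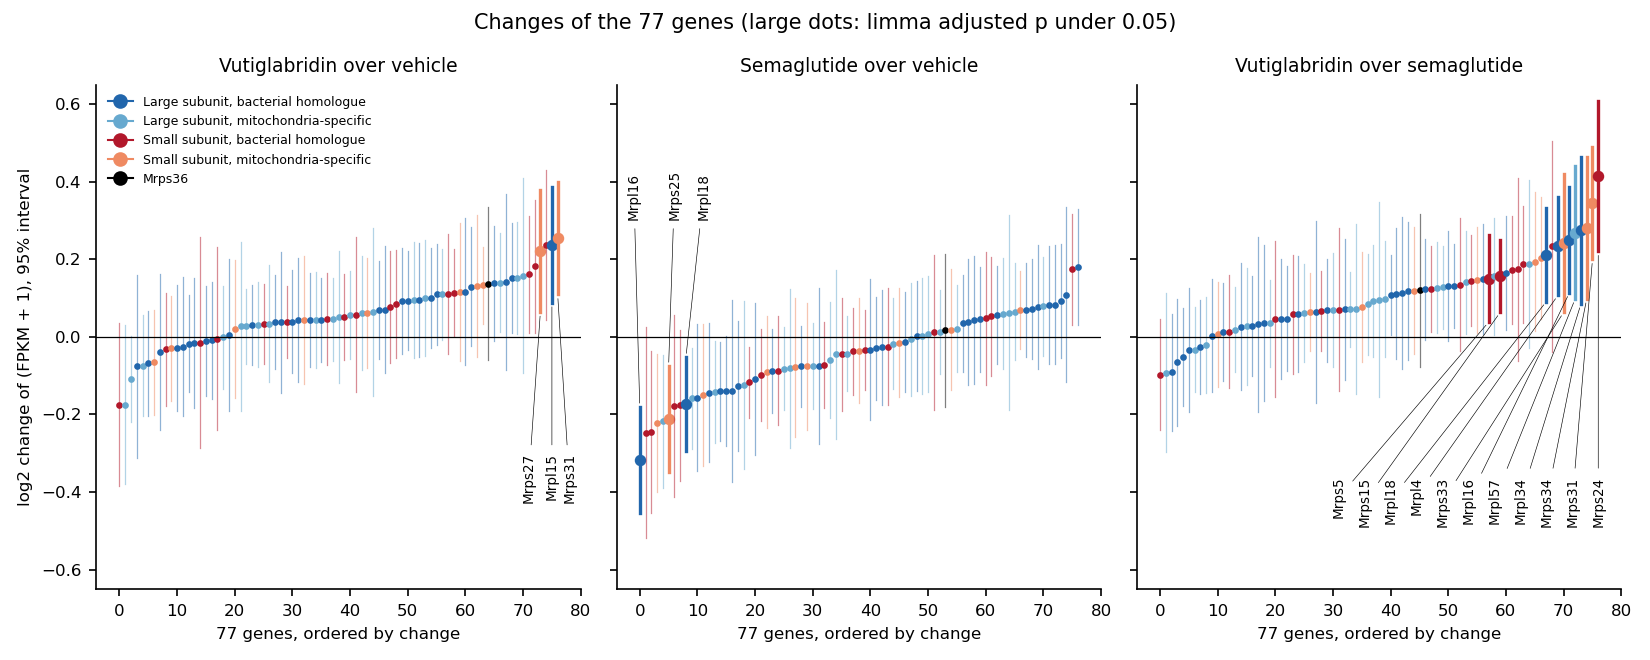
Change of each gene on the log2(FPKM + 1) scale with its 95% interval in the 3 comparisons, genes ordered by change and coloured by subunit and origin, with named large dots where limma's adjusted p was under 0.05. Points lie between -0.18 and 0.25 for vutiglabridin over vehicle, between -0.32 and 0.18 for semaglutide over vehicle, and between -0.10 and 0.41 for vutiglabridin over semaglutide.

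The 2 drugs were compared directly, since a call against vehicle for 1 drug does not show that the drugs differ. Of the 77 genes, 11 were higher and 0 lower under vutiglabridin than under semaglutide, 14.3% of the members, where 24.4% of all tested genes were called (11.9% higher and 12.6% lower). At an unadjusted p under 0.05, 26 members differed. Of the cell type markers, 2 of 3 tested for T and NK cells and 2 of 5 for recruited macrophages were lower under vutiglabridin. So were 1 of 5 for stellate cells, 1 of 5 for endothelial cells and 1 of 4 for cholangiocytes. Higher under vutiglabridin were 1 of 6 for hepatocytes and the 1 pancreas marker tested (0.32). T and NK cell markers summed to 0.28 to 2.53 FPKM under vutiglabridin and 2.03 to 6.29 under semaglutide, and cholangiocyte markers to 4.21 to 14.1 and 6.59 to 19.3. Their part in the members' differences was not tested. The median difference was 0.10 against 0.01 over all tested genes, 68 of 77 members were above 0, and the range was -0.10 to 0.41. Of all 11562 tested genes, 6020 were above 0. Differences over all tested genes ran with GC content (Spearman's rho 0.25) and exon length (-0.29), and over the members with rhos of 0.11 and -0.14. With these trends removed the members' median was 0.04, and 15 were higher and 3 lower. All 11562 tested genes then had 1509 higher and 1363 lower. After scaling to TPM the members' median was 0.00 with that of all genes at -0.08, and 2 genes, Mrps24 and Mrps31, were higher. Calls over all genes were then 596 higher and 2264 lower, against 1372 and 1454 as deposited.

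Mrps24, a small subunit protein with a bacterial homologue (chr11:5703983-5715680), differed most. Its FPKM ran from 23.7 to 32.6 with a median of 26.8 under vutiglabridin, against 16.3 to 29.8 with a median of 19.9 under semaglutide. All 8 vutiglabridin samples were above the semaglutide mean, and only semaglutide replicate 5 overlapped with them, the next semaglutide sample being at 21.2. The difference was 0.41 ± 0.09 (limma adjusted p = 0.00222) and held in every fit with a library left out and under the 11 other alternatives. Mrps24 shares exon sequence on the same strand with Urgcp, so its FPKM depends on how shared reads were assigned.

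Mrps31 had 7.03 to 10.1 FPKM with a median of 8.60 under semaglutide, below 7 of the 8 vutiglabridin samples given above. The difference was 0.34 ± 0.07 (limma adjusted p = 0.000857) and also held in all 24 and 11 fits. It is the only member called both in this comparison and for vutiglabridin over vehicle, and these comparisons share the vutiglabridin samples. Against vehicle, semaglutide gave -0.09 ± 0.07 for this gene (limma adjusted p = 0.367).

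Mrpl16 and Mrpl18, lower under semaglutide than under vehicle, were the other members called in 2 comparisons. Mrpl16 had 13.5 to 17.0 FPKM with a median of 14.1 under vutiglabridin, and its difference over the semaglutide values above was 0.25 ± 0.07 (limma adjusted p = 0.00724). Mrpl18 had 30.9 to 38.3 FPKM with a median of 34.6 under vutiglabridin and a difference of 0.21 ± 0.06 (limma adjusted p = 0.00978), with 6 of 8 vutiglabridin samples above every semaglutide sample. The Mrpl18 difference was 0.09 with GC and length trends removed (limma adjusted p = 0.211) and also missed the threshold under quantile normalization (0.0541), and neither gene passed after scaling to TPM. For both genes the vutiglabridin values lay around those of vehicle, with changes of -0.07 ± 0.07 and 0.04 ± 0.06 that did not pass. After scaling to TPM Mrpl16 was called lower under vutiglabridin than under vehicle.

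The remaining 7 called genes differed by 0.15 to 0.28. In the small subunit they were Mrps34 (0.28 ± 0.09), a protein needed for stability of that subunit in mouse and human, Mrps33 (0.24 ± 0.09), Mrps15 (0.16 ± 0.04) and Mrps5 (0.15 ± 0.05), the last 2 with bacterial homologues. In the large subunit they were Mrpl34 (0.27 ± 0.09), Mrpl4 (0.23 ± 0.06), which lines the exit tunnel in bacteria, and Mrpl57 (0.27 ± 0.08), an addition of mitochondria. In each of these 7 all 8 vutiglabridin samples were above the semaglutide mean, and the groups overlapped. Limma's adjusted p lay between 0.00705 for Mrpl4 and 0.0454 for Mrps5. None of the 7 passed after scaling to TPM, Mrps15 and Mrps33 did not pass with GC and length trends removed, and Mrps15, Mrps34 and Mrpl34 did not pass under quantile normalization.

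Mrps15 showed the least spread of them, with 14.1 to 17.2 FPKM and a median of 15.4 under vutiglabridin, against 13.4 to 15.0 and a median of 13.6 under semaglutide. Its difference was 0.06 with GC and length trends removed (limma adjusted p = 0.443). Mrps34 ranged from 19.5 to 31.3 FPKM with a median of 21.2 under vutiglabridin, against 15.6 to 22.2 with a median of 17.98 under semaglutide. It shares exon sequence with Nme3 on its own strand and with Mapk8ip3 on the other.

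Single libraries moved these counts. Without vutiglabridin replicate 4, 7 members were higher, and Mrpl34, Mrps34, Mrps33 and Mrps5 were no longer called. Without semaglutide replicate 5, 19 were higher. Over all 11562 tested genes these fits gave 1202 and 1622 higher. Mrps5 passed in 10 and Mrps33 in 16 of the 24 fits with a library left out, while Mrpl34 passed in 20 and Mrps34 in 22. The 95% interval lay within 0.5 of 0 for 75 of 77 members, against 84.4% of all tested genes, and within 0.25 for 39, against 36.8%. No member had groups without overlap, where 3.4% of all tested genes did.

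**Figure D3:**
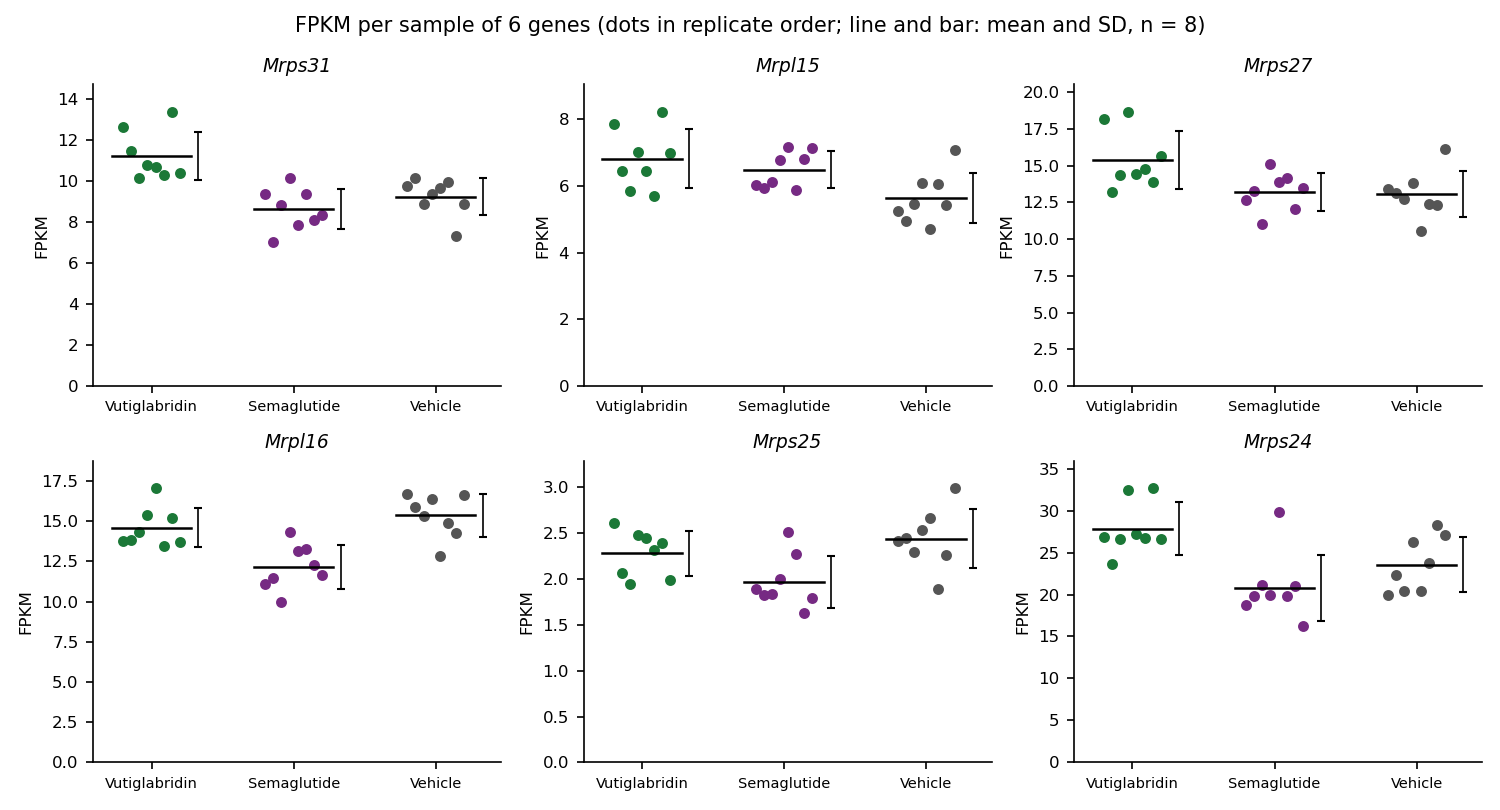
FPKM per sample of 6 called genes, with vutiglabridin, semaglutide and vehicle samples from left to right and the mean and SD of each group (n = 8). Mrps31 under vutiglabridin starts at 10.1 FPKM, near the top of both other groups, Mrpl16 under semaglutide has its median at 11.9 FPKM below the other groups, and 1 semaglutide sample of Mrps24 stands apart at 29.8 FPKM.

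Divided by subunit, the small subunit had 2 higher genes of 26 for vutiglabridin over vehicle, 1 lower for semaglutide over vehicle, and 6 higher for vutiglabridin over semaglutide. The large subunit had 1 higher of 50, 2 lower and 5 higher in the same comparisons. These were 7.69%, 3.85% and 23.1% of the small subunit and 2%, 4% and 10% of the large. Over all tested genes 6.53% were higher, 12.7% lower and 11.9% higher in these comparisons. Median changes of the small subunit were 0.06, -0.07 and 0.15, and those of the large subunit were 0.04, -0.02 and 0.07. After scaling to TPM the medians for vutiglabridin over semaglutide were 0.06 in the small and -0.02 in the large subunit, and with GC and length trends removed 0.10 and 0.03. The difference between the subunits was not tested. For vutiglabridin over semaglutide in the values as deposited, 25 of 26 small subunit genes and 42 of 50 large subunit genes were above 0. Of all 11562 tested genes, 6020 were.

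Another 7 genes with particular histories passed in no comparison of the values as deposited with all libraries. Mrpl58 encodes a hydrolase that frees stalled peptides, built into the large subunit, and averaged 9.36 ± 0.89 FPKM under vutiglabridin, 8.76 ± 1.22 under semaglutide and 8.32 ± 0.69 under vehicle. The 3 relatives of bacterial protein S18, Mrps18a, Mrps18b and Mrps18c, had changes of -0.00, 0.06 and 0.16 for vutiglabridin over vehicle and of -0.14, -0.02 and -0.03 for semaglutide over vehicle. Mrps12, whose bacterial homologue sits at the decoding centre and is known for streptomycin resistance, changed by 0.06 ± 0.10 under vutiglabridin and by 0.01 ± 0.10 under semaglutide. Mrps30 changed by 0.05 ± 0.05 and -0.08 ± 0.05, and Mrps36 by 0.14 ± 0.10 and 0.02 ± 0.10, over vehicle for vutiglabridin and semaglutide. With GC and length trends removed Mrps30 was called lower for semaglutide over vehicle and higher for vutiglabridin over semaglutide. The latter call also came under quantile normalization. After scaling to TPM Mrps18a was called lower for semaglutide over vehicle. Some fits with a library left out called Mrps30, Mrps18a or Mrps18c.

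The mean log2(FPKM + 1) over the members was 3.65 ± 0.07 under vutiglabridin, 3.55 ± 0.09 under semaglutide and 3.59 ± 0.07 under vehicle (SD, n = 8 each). Summed over the members, FPKM averaged 1199 ± 82.8 under vutiglabridin, 1111 ± 105 under semaglutide and 1151 ± 71.7 under vehicle. As a share of all FPKM in the library, the sum was 0.325 ± 0.019%, 0.323 ± 0.022% and 0.348 ± 0.011% in these groups, since the total was itself highest under vutiglabridin (368614 ± 14580, against 343428 ± 14751 under semaglutide and 330352 ± 14299 under vehicle). The sum of FPKM thus placed vutiglabridin above vehicle, and the share placed it below.

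Within groups these means ran from 3.59 to 3.80 under vutiglabridin, 3.46 to 3.74 under semaglutide and 3.52 to 3.70 under vehicle. Vutiglabridin replicate 4 (3.80) and semaglutide replicate 5 (3.74) were the highest of their groups, and in the members taken singly they were the group's highest sample for 35 and 41 of 77 genes. Both were also highest of their groups for respiratory chain and cytosolic ribosome genes, as the plot of means by sample shows. Deviations of 2 members from their group means had a median correlation of 0.23 over the 24 samples, with 0.26 within the large subunit, 0.18 within the small and 0.22 between the 2. The same median was 0.56 among respiratory chain genes, 0.71 among cytosolic ribosomal protein genes and -0.00 among all tested genes. These correlations are descriptions, since the points share libraries and depth.

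Single members followed the others to different degrees. The correlation of a member's deviations with the mean of the others was highest for Mrpl2 (0.86), Mrpl14 (0.86) and Mrpl28 (0.83), was above 0.5 for 39 genes and was below 0 for 5, of which Mrpl3 (-0.23) and Mrps2 (-0.19) were lowest. The genes named here were picked after their values were seen. Mrps31 was also among the 5 below 0, at -0.15. Across the members this correlation went with mean FPKM (Spearman's rho 0.42), GC content (0.40) and transcript length (-0.33), and the part of these in it was not tested.

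**Figure D4:**
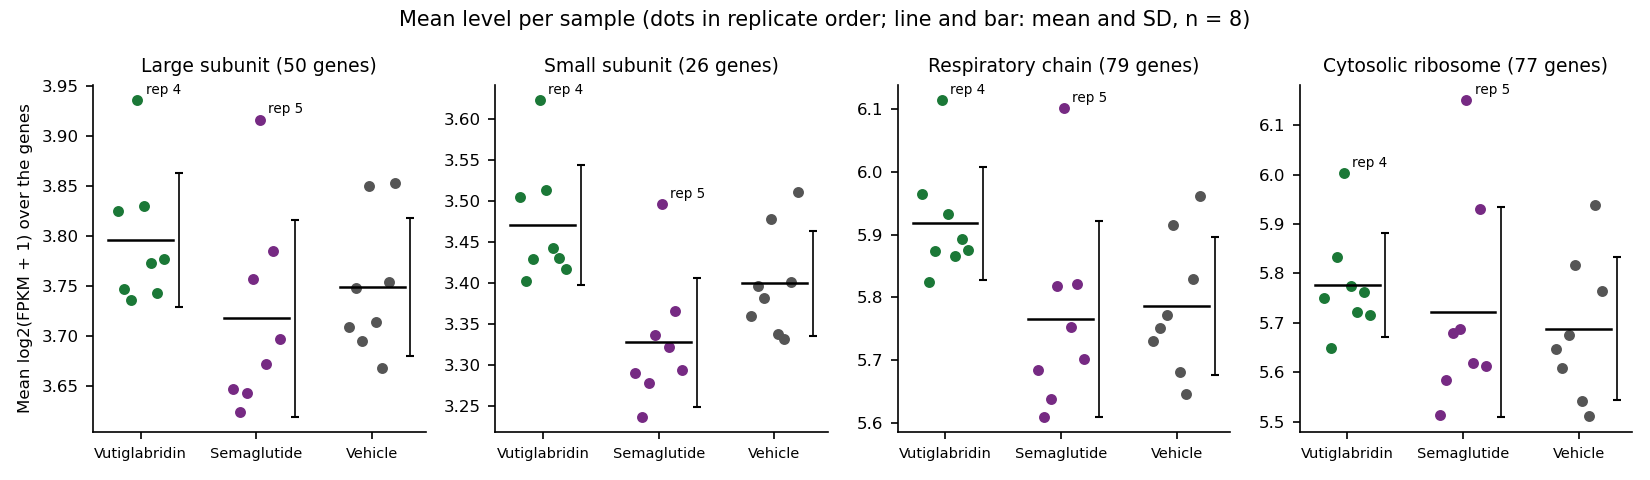
Mean log2(FPKM + 1) per sample over large subunit, small subunit, respiratory chain and cytosolic ribosomal protein genes, with vutiglabridin, semaglutide and vehicle from left to right, group means and SD (n = 8), and 2 samples named. Vutiglabridin replicate 4 and semaglutide replicate 5 are the highest of their groups in all 4 panels, and the axes of the panels differ.

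Other parts of the same machinery were counted for comparison. Respiratory chain subunits encoded in the nucleus (79 tested), which are assembled with the products of this ribosome, had 11 higher and 1 lower for vutiglabridin over vehicle with a median of 0.15, 1 higher and 5 lower for semaglutide over vehicle with a median of -0.00, and 21 higher and 1 lower for vutiglabridin over semaglutide with a median of 0.15. Cytosolic ribosomal protein genes (77 tested) had 0 called, 8 higher and 2 lower, and 5 higher and 2 lower in the same comparisons. The 22 genes of the TOM and TIM import complexes, which bring the members' proteins into mitochondria, had 1 higher and 2 lower, 1 higher and 2 lower, and 2 higher and 1 lower. Called in either direction were 15.2%, 7.59% and 27.8% of the respiratory chain list. The cytosolic list had 0%, 13.0% and 9.09%, and the import list 13.6% each time. Over all tested genes 6.53% were higher and 8.78% lower, 14.3% and 12.7%, and 11.9% and 12.6%. After scaling to TPM the respiratory chain had 0 higher and 3 lower, 1 higher and 10 lower, and 5 higher and 1 lower, with medians of -0.01, -0.06 and 0.05. The cytosolic list then had 0 called, 2 higher and 4 lower, and 1 higher and 8 lower, and the import list 0 higher and 5 lower, 1 higher and 3 lower, and 1 of each. All 11562 tested genes had 233 higher and 2731 lower, 1202 and 2116, and 596 and 2264 after that scaling. With GC and length trends removed the respiratory chain had 26 higher and 1 lower, 20 higher and 5 lower, and 18 higher and 3 lower, with medians of 0.14, 0.07 and 0.08, and the cytosolic list 6 higher and 0 lower, 28 higher and 1 lower, and 5 higher and 10 lower. All tested genes had 1090 higher and 1107 lower, 1706 and 1583, and 1509 and 1363 in that setting. Quantile normalization left the respiratory chain 1 higher and 1 lower for vutiglabridin over vehicle and 5 higher and 1 lower for vutiglabridin over semaglutide. All tested genes then had 538 higher and 848 lower, and 1197 higher and 1345 lower. The difference between these lists and the members was not tested.

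Of 5 further ribosomal proteins without an Mrp symbol (Dap3, Chchd1, Aurkaip1, Ptcd3 and Gadd45gip1), none passed in any of the 3 comparisons. Their median changes were 0.11 for vutiglabridin over vehicle, -0.08 for semaglutide over vehicle and 0.17 for vutiglabridin over semaglutide.

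Of 26 assembly factors none passed for vutiglabridin over vehicle. For semaglutide over vehicle 1 rose, Tfb1m (0.21; lost with GC and length trends removed, limma adjusted p = 0.0698), a methyltransferase of the small ribosomal RNA, and 2 fell, the pseudouridine synthase Trub2 (-0.22) and Malsu1 (-0.22), which binds the immature large subunit and was at the threshold and passed in 8 of the 24 fits with a library left out. For vutiglabridin over semaglutide 5 were higher and 0 lower, among them Mterf3 (0.24), and after scaling to TPM 0 were higher and 1 lower. Of 19 tested translation factors none passed for vutiglabridin over vehicle. Under semaglutide Lrpprc, which stabilises mitochondrial messages, rose (0.25), and Gatb, a subunit of the enzyme that makes glutaminyl-tRNA, and Mtfmt, which formylates the initiator tRNA, fell (-0.24 and -0.17). Mtfmt passed in 16 of the 24 fits with a library left out, and its change was -0.10 with GC and length trends removed (limma adjusted p = 0.23). Vutiglabridin over semaglutide gave 4 higher and 0 lower, among them the elongation factor relative Gfm2, which recycles ribosomes (0.23), and the release factor Mtrf1 (0.26), and after scaling to TPM 0 were higher and 2 lower. Called shares for semaglutide over vehicle and vutiglabridin over semaglutide were 11.5% and 19.2% of assembly factors and 15.8% and 21.1% of translation factors. Over all tested genes they were 27.0% and 24.4%.

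Mitochondrial tRNA synthetases held the largest single change of these lists. Lars2, which charges leucine tRNA, ran from 63.9 to 274 FPKM with a median of 146 under semaglutide, against 19.1 to 68.99 with a median of 36.1 under vehicle. The groups overlapped at their ends only, and the change was 1.80 ± 0.25 (limma adjusted p = 1.15e-05). Under vutiglabridin Lars2 ran from 18.4 to 45.1 FPKM, a difference of -2.01 from semaglutide (limma adjusted p = 3.75e-06). Its values spread widely within each group, and the cause of its rise under semaglutide was not tested. The other 3 called synthetases of 16 fell under semaglutide: Cars2 (-0.36), Aars2 (-0.22) and Rars2 (-0.20). None of the 16 passed for vutiglabridin over vehicle. For semaglutide over vehicle 25% of the list was called, against 27.0% of all tested genes. For vutiglabridin over semaglutide 3 were higher and 1, Lars2, was lower, again 25%, against 24.4% of all.

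Of 9 regulators of nuclear genes for mitochondria, 4 rose under semaglutide and 5 did not pass. That is 44.4% of this short list, where 14.3% of all tested genes rose. Gabpa, the DNA-binding subunit of GABP, had 8.75 to 13.7 FPKM with a median of 11.3 under semaglutide, against 5.80 to 8.87 with a median of 6.70 under vehicle. Only the ends of the groups overlapped, and the change was 0.62 ± 0.09 (limma adjusted p = 2.17e-05). Under vutiglabridin Gabpa had 5.95 to 9.76 FPKM with a median of 7.20, a difference of -0.51 ± 0.09 from semaglutide (limma adjusted p = 0.000288).

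The coactivator Ppargc1a had 2.3 to 3.2 FPKM with a median of 2.72 under semaglutide, against 1.44 to 2.25 with a median of 1.86 under vehicle. These groups did not overlap, as was so for 5.83% of all tested genes. The change of Ppargc1a was 0.40 ± 0.07 (limma adjusted p = 0.000230). Its relative Ppargc1b (0.32) and Yy1 (0.21) also rose, and after scaling to TPM 3 of the 4 passed, without Yy1. The Yy1 call was also lost without vehicle replicate 7 or semaglutide replicate 1, 3 or 8 (limma adjusted p up to 0.0653). None of the 9 passed for vutiglabridin over vehicle, where Gabpa changed by 0.12 ± 0.09 and Ppargc1a by 0.18 ± 0.07. For vutiglabridin over semaglutide 2 of the 9, Gabpa and Ppargc1a, were lower, where 12.6% of all tested genes were. That Ppargc1a call was lost with GC and length trends removed (-0.11, limma adjusted p = 0.218) and under quantile normalization (0.0942). Nrf1 lay between 0.80 and 1.34 FPKM under vutiglabridin, 1.16 and 1.33 under semaglutide and 0.91 and 1.30 under vehicle, and it passed in no comparison.

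Of 14 genes that copy and transcribe mitochondrial DNA, 3 rose under semaglutide, the packaging and transcription factor Tfam (0.18), Tfb2m (0.29), a transcription initiation factor, and the helicase Twnk (0.18). That is 21.4% of the list, where 14.3% of all tested genes rose. With a library left out, Twnk passed in 17 and Tfb2m in 19 of the 24 fits, and Tfb2m was lost with GC and length trends removed (limma adjusted p = 0.0666). The same list had 2 higher for vutiglabridin over vehicle, Hsd17b10 (0.33), a subunit of mitochondrial RNase P, and Tfb2m (0.29), and both were lost after scaling to TPM, as were Tfam and Twnk under semaglutide. These 2 were 14.3% of the list, where 6.53% of all tested genes were higher. Hsd17b10 was also lost under quantile normalization (limma adjusted p = 0.169). Tfb2m under vutiglabridin passed in 8 of the 24 fits with a library left out, and was lost with GC and length trends removed (limma adjusted p = 0.0558) and with only the 2 groups fitted (0.0941). Tfam had 12.9 to 14.8 FPKM under semaglutide and 11.5 to 12.6 under vehicle, with no overlap, as was so for 5.83% of all tested genes. For vutiglabridin over semaglutide 3 genes of the list were higher and 0 lower, 21.4% of it, where 11.9% of all tested genes were higher. Among them Hsd17b10 (0.50, limma adjusted p = 0.000231) held in all 24 fits with a library left out and the 11 other alternatives. The mitochondrial RNA polymerase Polrmt had medians of 5.38, 5.64 and 5.22 FPKM under vutiglabridin, semaglutide and vehicle and did not pass.

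**Figure D5:**
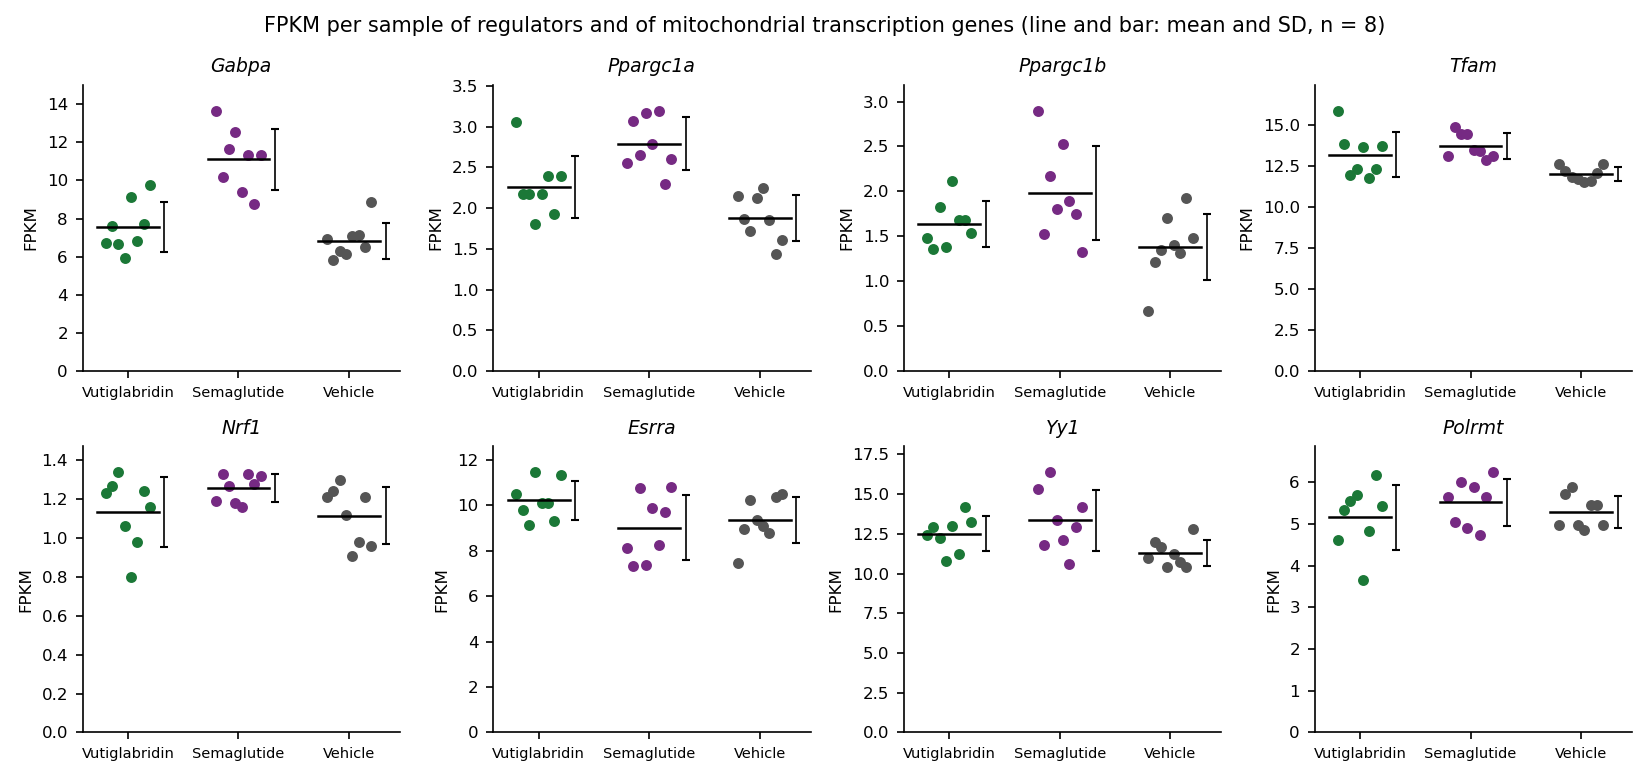
FPKM per sample of 8 genes that regulate nuclear genes for mitochondria or transcribe mitochondrial DNA, with vutiglabridin, semaglutide and vehicle samples from left to right and the mean and SD of each group (n = 8). Gabpa, Ppargc1a and Tfam are higher under semaglutide than under vehicle, with medians of 11.3, 2.72 and 13.4 FPKM against 6.70, 1.86 and 11.95 FPKM, while Nrf1 and Polrmt overlap throughout.

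In the GENCODE M21 annotation on GRCm38, 18 of the 77 members (23.4%) start within 1000 bp of a protein-coding gene on the other strand that runs the opposite way, against 10.1% of tested genes. Mrps12 shares such a stretch with Sars2, the mitochondrial serine tRNA synthetase, 172 bp apart, Mrpl49 with the cytosolic ribosomal protein gene Fau, and Mrpl32 with the proteasome gene Psma2, 3 pairs picked from the list after it was seen. Of the 17 partners that were tested, 2 were higher for vutiglabridin over vehicle, 2 higher and 1 lower for semaglutide over vehicle, and 3 higher for vutiglabridin over semaglutide. Over all tested genes 6.53% were higher, 14.3% higher and 12.7% lower, and 11.9% higher in these comparisons. Ptcd2, the partner of Mrps27, was among those higher under semaglutide (0.18, limma adjusted p = 0.0348), where Mrps27 changed by 0.02 ± 0.08.

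Exons of 22 members overlap those of another protein-coding gene in that annotation, among them Mrpl46 and Mrps11, which overlap each other, and Mrpl43, which overlaps Twnk. The library kit keeps strand, but no source says whether counting used it, so reads of these genes and their partners may be mixed. The members' longest transcripts had a median of 1884 bp, against 3298 bp for all tested genes, with a median GC content of 49.7% and 49.8%.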

How the data were processed

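RNA of 24 mouse liver samples was sequenced from stranded libraries of mRNA, per the labels' protocols. The authors deposited 1 table of FPKM values, genes by samples. The submitters' processing notes list the tools HISAT2, StringTie and DESeq2 without versions or roles, and no source used here gives the build or the counting settings. All 14293 identifiers and symbols matched GENCODE M21 on GRCm38, from which coordinates come.

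Values were taken as log2(FPKM + 1). A gene entered the tests if 8 or more samples reached 0.5 FPKM, which left 11562 genes and all 77 members. limma 3.58.1 in R 4.3.3 fitted all 3 groups in one model (empirical Bayes moderation with a trend in mean level, two-tailed), with Benjamini-Hochberg adjustment over all tested genes and a threshold of 0.05. Fold changes on this scale understate changes of low genes. The fit was tested on simulated data. Named members are the called ones with the 8 highest and 8 lowest changes per comparison, the 3 highest and 3 lowest in level, and a fixed set by function. Of the other lists, the regulators and the 3 genes with the lowest p in each list could be named, and others named lie outside that rule. The members, lists and classes were chosen with earlier results of these data known. Depth was estimated from the steps of low FPKM values in genes of up to 1500 bp of exon and is approximate. Alternatives covered pseudocounts, filters, TPM scaling, quantile normalization, median centring, GC content and length trends, the replicate block, 2-group fits and each library left out.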

Additional observations from a re-analysis of the deposited data

Results flagged for a closer look

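In the groups of 8, single samples stood apart from their group in 10 of 87 sets of values examined, by a gap to the nearest sample that, over the group's range, passed Dixon's 95% critical value. The sets were the members named by the rule above, many of them for being called, and the means of all members and of each subunit. Other members were not screened. Chance flags about 1 in 20 such sets. Vutiglabridin replicate 4 was the highest for Mrpl14 (55.8 FPKM, next 43.4), Mrpl34 (62.4 FPKM, next 47.7) and Mrps12 (41.7 FPKM, next 30.7). It was also highest for the mean log2(FPKM + 1) of all members (3.80, next 3.69) and of the large subunit (3.94, next 3.83). Semaglutide replicate 5 was the highest for Mrpl10 (37.4 FPKM, next 32.8), Mrpl34 (53.95 FPKM, next 42.1), Mrps12 (41.9 FPKM, next 32.1) and Mrps24 (29.8 FPKM, next 21.2). Vehicle replicate 7 was the lowest for Mrps31 (7.33 FPKM, next 8.88). The 2 high samples account for 9 of the 10, and these 9 are not independent, since they share libraries. Members that were not screened also held single distant values, in other libraries. Mrpl21 was lowest in vutiglabridin replicate 7, the shallowest library (5.49 FPKM, next 9.53). Mrpl1 was highest in semaglutide replicate 4 (10.36 FPKM, next 8.36) and Mrps6 in vehicle replicate 8 (10.92 FPKM, next 7.43).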

How the results depend on the processing

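Fold changes and counts depended most on scaling. After scaling to TPM, vutiglabridin over vehicle gave 8 lower members and 0 higher, against 0 lower and 3 higher as deposited, with the median of all genes at -0.13. Semaglutide over vehicle then gave 15 lower and vutiglabridin over semaglutide 2 higher, calls over all genes for semaglutide over vehicle were 1202 higher and 2116 lower, against 1650 and 1474 as deposited, and the members' median relative to all genes was 0.04, -0.03 and 0.08 in the 3 comparisons. As deposited these relative medians were 0.04, -0.02 and 0.09. They were 0.01, -0.03 and 0.06 under quantile normalization. With trends of GC content and exon length removed they were 0.03, 0.001 and 0.04. Quantile normalization gave 8 calls (1 higher, 7 lower) for semaglutide over vehicle, where all tested genes had 1803 higher and 1513 lower. With GC content and exon length trends removed that comparison gave 8 calls (3 higher, 5 lower) and vutiglabridin over semaglutide gave 18 (15 higher, 3 lower). With only the 2 groups compared, vutiglabridin over vehicle gave 1 call and semaglutide over vehicle 5. With 1 library left out, calls ranged from 1 to 4, from 3 to 10 and from 7 to 19 in the 3 comparisons. The replicate block gave 3, 4 and 11 calls, and with GC and length trends removed 4, 9 and 17. Correlations of same-numbered samples ran from -0.12 to 0.28 (median 0.15, with 6 of 8 pairs over 0.1), -0.25 to 0.25 (median -0.04) and -0.20 to 0.29 (median -0.04) in the 3 comparisons. As not every pair was over 0.1 in any comparison, and the labels tie no numbers together, the numbers were not taken as pairs. Among the members, 2 calls for semaglutide over vehicle held in all 24 fits with a library left out and in all 11 other alternatives, Mrpl16 and Mrps25. For vutiglabridin over semaglutide those of Mrps24 and Mrps31 did. Mrps31 for vutiglabridin over vehicle was lost only after scaling to TPM (limma adjusted p = 0.246). The causes of these shifts were not tested. The deposited values give no counts, so counting error could not be separated from the spread between samples, and members under 1 FPKM are the least certain.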
